A study of Mus musculus with 6 samples.

Results

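*Pax7* and *Pax3*, paralogues that encode paired-box transcription factors, were followed through 5 annotated transcripts, 2 of *Pax7* and 3 of *Pax3*, among the 140992 transcripts quantified in each of 6 libraries. The members were chosen by name, and every transcript annotated to either gene was kept. Estimated reads were summed per gene, which gave 2 genes among 54115 genes with a transcript. Both genes were among the 17152 genes that reached 5 reads in at least 2 libraries, and all 5 transcripts were among the 55258 transcripts that passed the same limit.

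PAX7 and PAX3 bind DNA through a paired domain and a homeodomain and arose from a common ancestral gene. In the embryo both mark muscle progenitors, and PAX3 is needed for the progenitors that migrate into the limb. In adult muscle PAX7 marks satellite cells, the stem cells that lie between the myofibre and its basal lamina, and *Pax3* stays active in the satellite cells of some muscles.

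The RNA-sequencing compared freshly isolated satellite cells of 3 *Pax7WT* and 3 *Pax7KR* libraries. Both groups came from young adult mice of the C57BL/6J strain, from hindlimb muscle without injury, and the cells were sorted as positive for α7-INTEGRIN and CD34 and negative for CD31, CD11b, SCA-1 and CD45. *Pax7KR* mice were homozygous for an allele made by CRISPR/Cas9 editing of zygotes, in which PAX7 carries arginine in place of lysine 193, an acetylation site, in every cell that expresses the gene. *Pax7WT* mice were littermates with the unedited allele, and no Cre or reporter is named for either group. The comparison asks whether the change in the PAX7 protein goes with a change in the RNA of its own gene or of its paralogue. The libraries held 17822367 to 27908054 estimated reads, and they are described as biological replicates, with no word on whether a library is 1 mouse or a pool.

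On GRCm38, *Pax7* (ENSMUSG00000028736) lies at chr4:139737062-139833528 and *Pax3* (ENSMUSG00000004872) at chr1:78101267-78197134, both on the minus strand. *Pax7-201* spans 5854 bases in 9 exons and encodes 503 residues, while *Pax7-202* spans 1725 bases in 9 exons and encodes 505 residues. Most of the gap in length between them is untranslated sequence: the annotated 3′ UTR is 3725 bases long in *Pax7-201* and 111 bases in *Pax7-202*. *Pax3-201* spans 3078 bases in 9 exons and encodes 484 residues, *Pax3-202* spans 3863 bases in 8 exons and encodes 479 residues, and *Pax3-203* is a processed transcript of 3271 bases in 5 exons with no annotated coding sequence. Lysine 193 is the last whole codon of exon 4 in *Pax7-201*, at chr4:139828577-139828579. The sequences below run from exon 4 into exon 5 in the reference transcripts, without the intron between them, with that codon in capitals. The *Pax7* stretch lies within chr4:139784671-139828614 and the *Pax3* stretch within chr1:78132422-78192480, both read on the minus strand.

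Pax7-201: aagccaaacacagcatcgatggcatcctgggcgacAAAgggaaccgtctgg
Pax3-201: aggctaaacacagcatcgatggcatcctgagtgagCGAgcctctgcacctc

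In both genes 1 base of exon 4 follows the capitals. A run of 24 bases was identical between the paralogues, and it ended 6 bases before the codon. At the codon itself *Pax7* has AAA, which encodes lysine, and *Pax3* has CGA, which encodes arginine and is codon 195 of *Pax3-201* at chr1:78192443-78192445. The deposited values are read totals per transcript, so the edited codon was not read in either genotype, and the level of *Pax7* is no check of the genotype labels.

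*Pax7-202* differs from *Pax7-201* within the coding sequence by 6 bases at the start of exon 4, which add 2 codons and make the same lysine codon 195 there. The junction of exons 3 and 4 is shown for both (within chr4:139828687-139829514, minus strand), with the added bases in capitals.

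Pax7-201: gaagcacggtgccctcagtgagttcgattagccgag
Pax7-202: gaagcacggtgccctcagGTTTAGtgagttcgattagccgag

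The coding transcripts of *Pax3* differ at their ends. They are shown up to the stop codon, *Pax3-201* within chr1:78102801-78103342 and *Pax3-202* at chr1:78103308-78103342, on the minus strand. Capitals mark the bases after the end of exon 8 of *Pax3-201*, and both stretches in capitals begin with GT.

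Pax3-201: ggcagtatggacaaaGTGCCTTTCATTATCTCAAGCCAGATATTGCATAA
Pax3-202: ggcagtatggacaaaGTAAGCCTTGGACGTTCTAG

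Between *Pax7-201* and *Pax3-201*, exons 1, 2, 3, 6 and 8 have coding parts of equal length. Their identity was 85.9% of 85 bases in exon 1, 83.1% of 236 bases in exon 2 and 78.5% of 130 bases in exon 3, against 72.9% of 166 bases in exon 6 and 69.6% of 247 bases in exon 8. The coding sequence was thus more alike in its first 3 exons than in exons 6 and 8. Of the 31-base sequences of the *Pax7* transcripts, 0 occurred in a *Pax3* transcript. With other genes, *Pax7* shared 0 of its 31-base sequences and the *Pax3* transcripts shared 1.02% to 1.31% of theirs.

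*Pax7* RNA was abundant in both genotypes and did not differ between them beyond the spread of the libraries. The *Pax7WT* libraries held 45337, 26675 and 30373 estimated reads of *Pax7*, which are 1666, 1506 and 1480 CPM (reads scaled to library size, with TMM factors). The *Pax7KR* libraries held 32235, 34867 and 34623 reads, which are 1410, 1460 and 1637 CPM. The highest library was *Pax7WT* replicate 1 and the next highest *Pax7KR* replicate 3, and the groups overlapped. The mean was 1551 ± 101 CPM in *Pax7WT* and 1502 ± 119 CPM in *Pax7KR* (SD, n = 3 each). In edgeR's quasi-likelihood test the log2 fold change, *Pax7KR* over *Pax7WT*, was -0.05 with a standard error of 0.08 (unadjusted p of 0.576, adjusted p of 0.998). Its 95% interval ran from -0.22 to 0.13, which is a change of -14.0% to 9.15% in *Pax7KR*. At this read number the counting error of *Pax7* was small beside the spread: the exact Poisson interval for *Pax7WT* replicate 1 was 1651 to 1682 CPM.

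**Figure D1:**
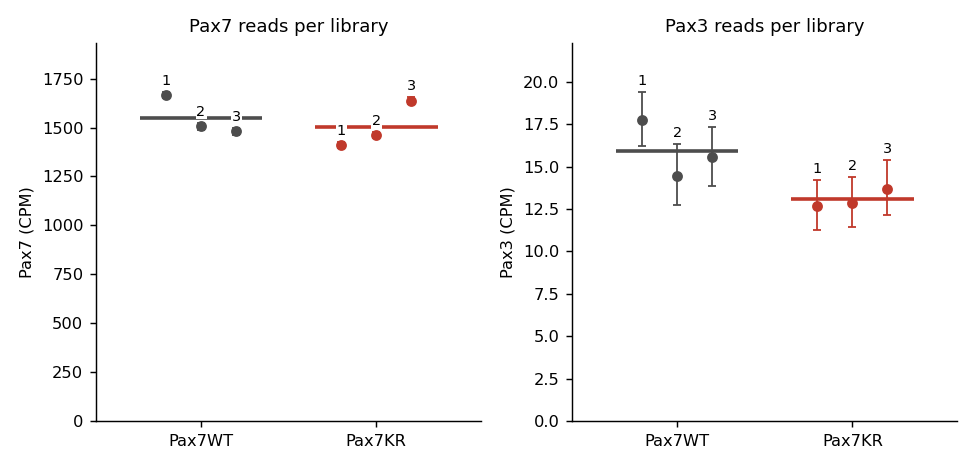
*Pax7* (left) and *Pax3* (right) in CPM, reads scaled to library size, for each library, by genotype. Points are libraries with their replicate number, whiskers are exact 95% Poisson intervals of the reads, and horizontal lines are group means. The *Pax7* groups overlap, at 1480 to 1666 CPM in *Pax7WT* and 1410 to 1637 CPM in *Pax7KR*. The 3 *Pax3* values of *Pax7KR*, 12.7 to 13.7 CPM, lie below the 3 of *Pax7WT*, 14.5 to 17.8 CPM.

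Per length, in TPM (a level corrected for transcript length and depth), *Pax7* stood at 590, 511 and 523 in *Pax7WT* and at 515, 530 and 584 in *Pax7KR*. The means were 541 ± 42.5 and 543 ± 36.4 TPM (SD, n = 3 each), a difference of 0.314% with an exact two-sided permutation p of 0.9. Ranked by TPM among 21805 protein-coding genes, *Pax7* stood at places 179 to 198 in the 6 libraries. The order of the libraries within each genotype was the same as in CPM for *Pax7KR*, but *Pax7WT* replicates 2 and 3 changed places.

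Both *Pax7* transcripts were present in all libraries in a nearly constant mix. *Pax7-201*, the longer one, stood at 444, 397 and 393 TPM in *Pax7WT* and at 397, 405 and 444 TPM in *Pax7KR*. *Pax7-202*, with the added codons, stood at 145, 114 and 131 TPM in *Pax7WT* and at 118, 126 and 140 TPM in *Pax7KR*. For each transcript the highest values were again those of *Pax7WT* replicate 1 and *Pax7KR* replicate 3, and the groups overlapped. The log2 fold changes were -0.04 (SE 0.07) for *Pax7-201* and -0.07 (SE 0.11) for *Pax7-202* in edgeR, each with an adjusted p of 1.00 over all transcripts. *Pax7-202* made up 24.7%, 22.3% and 24.97% of the gene's TPM in *Pax7WT* and 22.9%, 23.7% and 24.0% in *Pax7KR*. The share was 24.0 ± 1.46% against 23.5 ± 0.608% (SD, n = 3 each), a difference of -0.453 percentage points, with an exact permutation p of 0.6 where the smallest possible is 0.1. In estimated reads, which favour long transcripts, the same transcript took 6.96% to 7.94%. The split rests on little sequence of its own: 34 of the 31-base sequences of *Pax7-202*, 2.0% of them, are missing from *Pax7-201*, whereas 71.5% of those of *Pax7-201* are missing from *Pax7-202*. Reads from within the shared part were divided by the authors' estimate, and its uncertainty is not in the values used here.

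**Figure D2:**
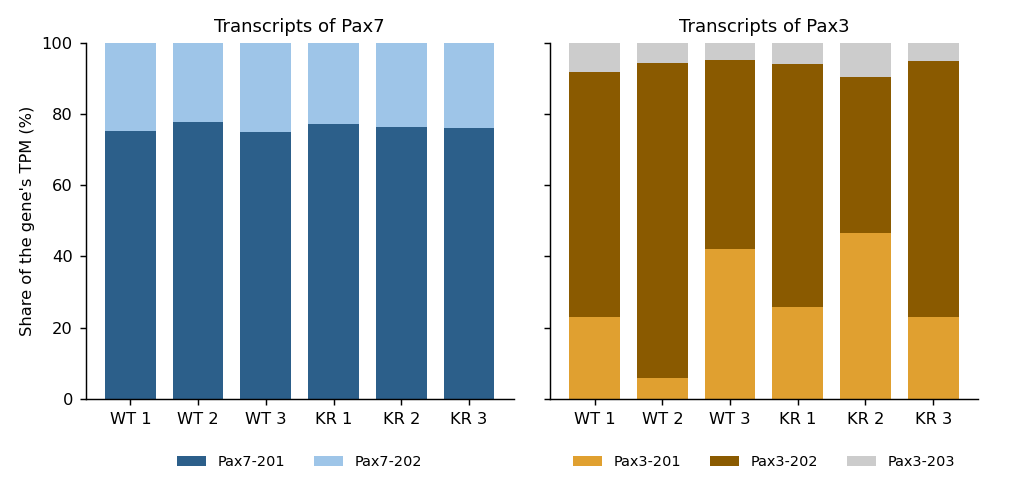
Share of each transcript in the TPM of *Pax7* (left) and *Pax3* (right), in percent, for the 3 *Pax7WT* (WT) and 3 *Pax7KR* (KR) libraries. *Pax7-202* holds 22.3% to 24.97% of *Pax7* in every library, while *Pax3-201* ranges from 5.93% to 46.5% of *Pax3* with no order by genotype.

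*Pax3* was a low transcript in these cells, and its reads were somewhat fewer in *Pax7KR*, without passing the adjusted threshold. The *Pax7WT* libraries held 483, 256 and 319 reads of *Pax3*, which are 17.8, 14.5 and 15.5 CPM. The *Pax7KR* libraries held 290, 307 and 290 reads, which are 12.7, 12.9 and 13.7 CPM. All 3 *Pax7KR* values lay below all 3 *Pax7WT* values, but *Pax7WT* replicate 2 was only just above *Pax7KR* replicate 3, and their Poisson intervals of 12.7 to 16.3 and 12.2 to 15.4 CPM overlapped. Such a separation, with *Pax7KR* lower, was seen in 5.19% of all genes tested. The mean was 15.9 ± 1.68 CPM in *Pax7WT* and 13.1 ± 0.551 CPM in *Pax7KR* (SD, n = 3 each), with an exact permutation p of 0.1, the smallest that 3 against 3 libraries allow. In edgeR's quasi-likelihood test the log2 fold change was -0.29 with a standard error of 0.12 and a 95% interval from -0.54 to -0.03, a change of -31.4% to -1.97%. The unadjusted p was 0.032, the 499th smallest of 17152, and the adjusted p was 0.992. Of all genes tested, 2.43% had an unadjusted p under 0.05 and a lower value in *Pax7KR*. At an adjusted p under 0.1 edgeR called 0 genes, or 0.0%, while 803 had an unadjusted p under 0.05 and DESeq2 called 30. Because the RNA is from bulk cells, fewer cells with *Pax3* and less *Pax3* RNA per cell cannot be told apart.

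Per length the *Pax3* groups overlapped. *Pax3* stood at 8.28, 6.42 and 7.49 TPM in *Pax7WT* and at 6.29, 6.70 and 6.48 TPM in *Pax7KR*, where *Pax7WT* replicate 2 fell inside the *Pax7KR* range. The means were 7.39 ± 0.933 and 6.49 ± 0.201 TPM (SD, n = 3 each), a change of -12.2%, with an exact permutation p of 0.3. The average effective length of *Pax3*, which depends on the mix of its transcripts, was 3453 ± 127 bases in *Pax7WT* and 3378 ± 117 bases in *Pax7KR*. With that length as an offset in edgeR the unadjusted p rose to 0.0929, and without *Pax7WT* replicate 1, the library with most *Pax3*, it was 0.141 and the log2 fold change was -0.20. Over all the settings tried the log2 fold change stayed negative, between -0.35 and -0.20.

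**Figure D3:**
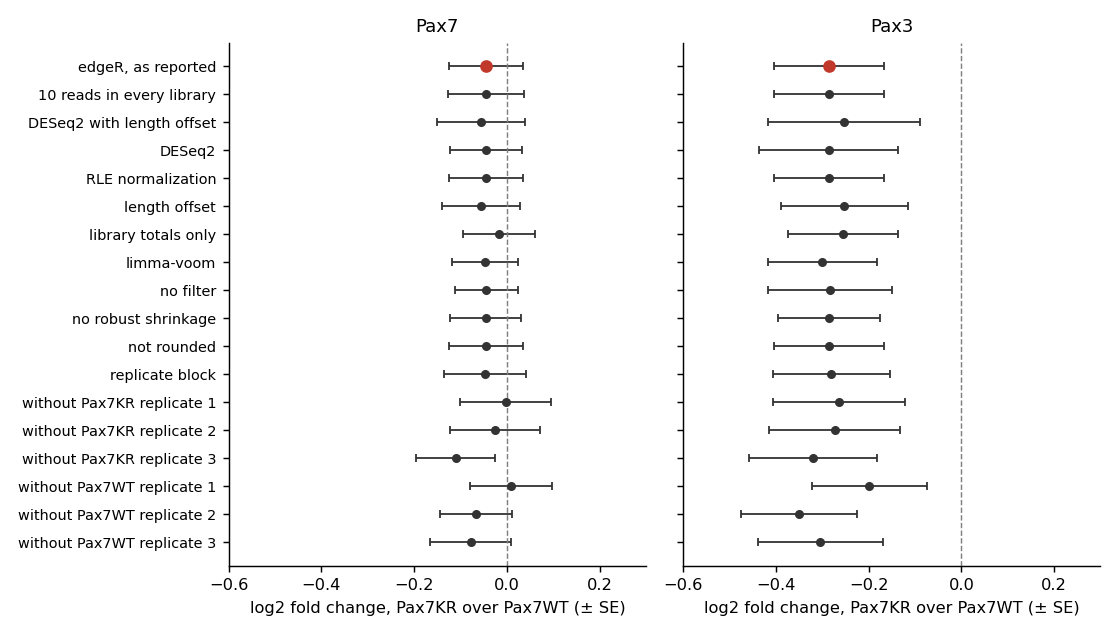
Log2 fold change of *Pax7* (left) and *Pax3* (right), *Pax7KR* over *Pax7WT*, with its standard error, in the edgeR fit reported here (red, top) and in 17 other fits, of which 6 leave out 1 library each. *Pax7* lies between -0.11 and 0.01 and *Pax3* between -0.35 and -0.20.

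The groups overlapped for each of the 3 transcripts of *Pax3*. *Pax3-202* was the most abundant in all libraries but 1, at 5.70, 5.67 and 3.98 TPM in *Pax7WT* and 4.30, 2.93 and 4.64 TPM in *Pax7KR*. *Pax3-201* stood at 1.90, 0.381 and 3.14 TPM in *Pax7WT* and at 1.62, 3.11 and 1.49 TPM in *Pax7KR*. The exception was *Pax7KR* replicate 2, in which *Pax3-201* was the higher of the coding pair, and the lowest *Pax3-201* value, in *Pax7WT* replicate 2, rests on 12.3 estimated reads. *Pax3-203*, the processed transcript, stood between 0.342 and 0.673 TPM. The log2 fold changes in edgeR were 0.13 (SE 0.74) for *Pax3-201*, -0.43 (SE 0.25) for *Pax3-202* and -0.12 (SE 0.57) for *Pax3-203*, with an adjusted p of 1.00 each. Over all transcripts edgeR called 0 of 55258, or 0.0%, against 2217 with an unadjusted p under 0.05 and 731 called by DESeq2. The share of *Pax3-201* in the gene's TPM was 23.6 ± 18.0% in *Pax7WT* and 31.7 ± 12.8% in *Pax7KR* (SD, n = 3 each), with an exact permutation p of 0.4. It ran from 5.93% to 46.5%, and the extremes were *Pax7WT* replicate 2 and *Pax7KR* replicate 2. As with *Pax7-202*, few 31-base sequences, 31 or 1.0%, set *Pax3-201* apart from the other transcripts of its gene, against 14.1% for *Pax3-202* and 71.6% for *Pax3-203*.

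*Pax7* exceeded *Pax3* by far in every library. In TPM the ratio of *Pax7* to *Pax3* was 71.3, 79.6 and 69.9 in *Pax7WT* and 81.8, 79.2 and 90.2 in *Pax7KR*. *Pax7KR* replicate 3 had the highest ratio, while *Pax7KR* replicate 2 lay below *Pax7WT* replicate 2, so that the groups overlapped. The mean of log2(*Pax3*/*Pax7*) was -6.20 ± 0.10 in *Pax7WT* and -6.39 ± 0.10 in *Pax7KR* (SD, n = 3 each), a difference of -0.19 with an exact permutation p of 0.2. In estimated reads the difference was -0.23 and the groups did not overlap, with an exact permutation p of 0.1. *Pax3* ranked 9102 to 9773 by TPM among the 21805 protein-coding genes, against 179 to 198 for *Pax7*.

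No other gene of the family came near this level. *Pax5*, known from B cells, was the only further member that was tested, on 0 to 7 reads per library. *Pax9* had 0 to 3 reads and *Pax1* had 0 to 1, both being genes of the embryonic sclerotome. *Pax2* and *Pax8* of kidney development, *Pax4* of the endocrine pancreas and *Pax6* of the eye had 0 reads in all 6 libraries. For a gene at 0 reads the files allow an expected count of up to about 3 reads in each library, which covers counting error only.

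Since edgeR called 0.0% of all genes tested, a count of 0 called is no result about any of the gene lists that follow, and they are described by their values. Of 11 genes that act upstream of *Pax3* or *Pax7* in muscle progenitors 9 were tested, 2 with a higher and 7 with a lower value, and 0 were called, with a median log2 fold change of -0.11 against -0.00 over all genes tested. *Eya4*, a transcriptional coactivator, stood at 125, 104 and 111 CPM in *Pax7WT* and at 105, 102 and 100 CPM in *Pax7KR*, with a log2 fold change of -0.15 and an unadjusted edgeR p of 0.0546. *Eya2*, of the same family, stood at 13.9, 13.8 and 14.6 CPM in *Pax7WT* and at 12.03, 9.97 and 13.3 CPM in *Pax7KR*, with no overlap, a log2 fold change of -0.26 and an unadjusted edgeR p of 0.0673. In TPM the gap for *Eya2* was wider, 18.3 ± 2.76 against 9.24 ± 1.39 (SD, n = 3 each). With the gene's average effective length as an offset, the same in both tools, the log2 fold change was -1.05 in edgeR and in DESeq2. That length depends on the mix of the gene's transcripts. The wider gap thus rests on the average effective length, at 238 to 377 reads per library, and not on the reads alone. The gene was called in 1 of 17 alternatives, DESeq2 with that offset, which was added after seeing the data (adjusted p of 0.000227). In edgeR with the same offset the unadjusted p was 0.000105 and the adjusted p was 0.601. Over the 17 alternatives the adjusted p ran from 0.000227 to 1.00.

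**Figure D4:**
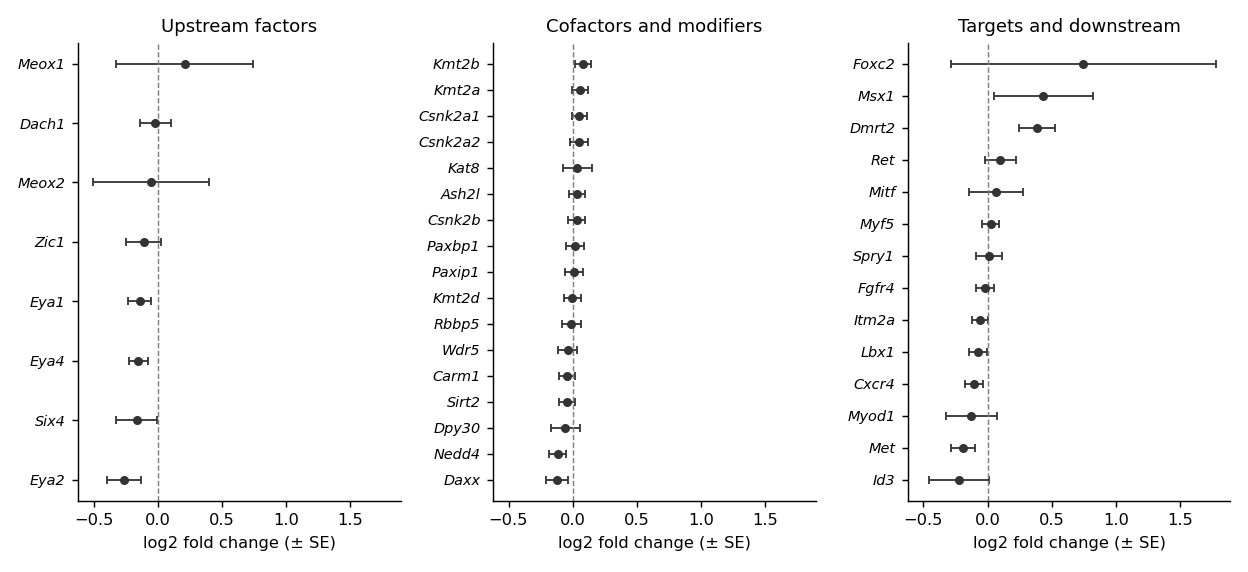
Log2 fold change, *Pax7KR* over *Pax7WT*, with its standard error in edgeR for most of the tested genes upstream of *Pax3* or *Pax7*, for cofactors and modifiers of the proteins, and for target or downstream genes. The cofactors lie between -0.12 and 0.08, and *Foxc2*, with the widest error, is the farthest from 0 at 0.75.

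Cofactors and modifiers of the PAX3 and PAX7 proteins were at nearly the same level in both genotypes. All 18 were tested, 10 with a higher and 8 with a lower value, 0 called, and a median log2 fold change of 0.01. *Nedd4*, a ubiquitin ligase that acts on PAX7, stood at 532 TPM and had a log2 fold change of -0.12 (SE 0.07, unadjusted edgeR p of 0.106). Its *Pax7KR* values of 1448, 1431 and 1471 CPM lay below the *Pax7WT* values of 1551, 1637 and 1526 CPM. The CPM of 2 other cofactors, *Csnk2b* and *Ash2l*, did not overlap either and was higher in *Pax7KR*, with log2 fold changes of 0.03 (SE 0.06) each. Over all genes tested, 5.19% did not overlap with *Pax7KR* lower and 5.14% with *Pax7KR* higher. *Daxx*, a repressor that binds PAX3, had a log2 fold change of -0.12 (unadjusted edgeR p of 0.18). *Kat8*, the acetyltransferase also named Myst1, and *Sirt2*, the deacetylase, had log2 fold changes of 0.04 (SE 0.11) and -0.04 (SE 0.06). *Csnk2b*, a casein kinase subunit, *Ash2l*, a subunit of histone methyltransferase complexes, *Kat8* and *Sirt2* fall outside the rule for named genes and were picked with their values known.

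Targets and genes downstream of PAX3 or PAX7 showed no common direction. All 14 were tested, 7 higher and 7 lower, 0 called, with a median of -0.00. *Dmrt2*, a transcription factor under PAX3 control in the embryo, had the smallest p of the list. It stood at 51.8, 35.8 and 36.2 CPM in *Pax7WT* and at 56.3, 54.7 and 51.1 CPM in *Pax7KR*, where *Pax7WT* replicate 1 overlapped the *Pax7KR* values. Its log2 fold change was 0.38 (SE 0.14), with an unadjusted edgeR p of 0.0253 and an adjusted p of 0.992. Without *Pax7WT* replicate 1 the log2 fold change was 0.59 and the adjusted p was 0.0695, and with no filter on low counts the adjusted p was 0.00334, so that the call turned on the setting. Over 17 alternatives it was called in these 2, and the adjusted p ran from 0.00334 to 1.00. *Met*, the receptor for hepatocyte growth factor, had -0.19 (unadjusted edgeR p of 0.0586). *Spry1*, an inhibitor of receptor tyrosine kinase signalling, and *Id3*, an inhibitor of basic helix-loop-helix factors, were the most abundant at 1026 and 985 TPM and had log2 fold changes of 0.01 and -0.22 (SE 0.10 and 0.23).

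The genes around *Pax7* were examined because the edited allele is a change at that locus. Those around *Pax3*, on another chromosome, were examined in the same way. Of 24 other annotated genes within 500 kb of *Pax7*, 9 were tested, 5 higher and 4 lower, and 0 were called. All 9 lie on the side of lower coordinates. The nearest, *Tas1r2* at 66.8 kb, had 0 to 7 reads, and the next, *Aldh4a1* at 87.4 kb, a mitochondrial enzyme of proline breakdown, had a log2 fold change of 0.11 (SE 0.08). *Aldh4a1* stood at 36.0, 31.8 and 36.4 CPM in *Pax7WT* and at 38.1, 37.6 and 37.1 CPM in *Pax7KR*. Of the 9 it was the only gene without overlap. Such a separation, with *Pax7KR* higher, was seen in 5.14% of all genes tested. Of 14 genes around *Pax3*, 6 were tested, 2 higher and 4 lower, and 0 were called. The nearest of them, *Sgpp2* at 113 kb, had 0 to 17 reads. *Acsl3*, a fatty acid activating enzyme at 461 kb, had a log2 fold change of -0.34 (SE 0.19), and was called only without *Pax7KR* replicate 3, with -0.57 and an adjusted p of 0.0398, against 0.0398 to 1.00 over its 17 alternatives.

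Across the 6 libraries, the genes most like *Pax7* and those most like *Pax3* were different sets. Likeness was Pearson's r of log2(CPM + 1) over the 6 libraries, among 9288 other protein-coding genes with a mean of 10 CPM or more, and with so few libraries some genes must come out high. For *Pax7* the highest were *Purb* (r = 0.99), *Cmpk2* (0.99), *Lonrf3* (0.98), *Grb2* (0.98) and *Zfp1* (0.97), and in all 5 the groups overlapped. For *Pax3* they were *Tmem233* (r = 0.99), *Cpt2* (0.99), *Fam53a* (0.99), *Disp1* (0.98) and *Cdc42bpa* (0.98), and in all 5 *Pax7KR* was lower with no overlap. *Pax3* has that separation itself, so likeness to it selects for the same. *Pax3* and *Pax7* correlated with each other at r = 0.65 and Spearman's rho = 0.77, which placed *Pax3* at rank 961 for *Pax7* and *Pax7* at rank 1075 for *Pax3*.

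Satellite cell markers were abundant in the sorted cells, and the summed levels of the markers of other cells overlapped between the genotypes. The summed level of 10 satellite cell markers ran from 4023 to 4318 TPM in *Pax7WT* and from 4314 to 4778 TPM in *Pax7KR*, an overlap that rests on the edge of each range. *Pecam1*, *Itgam*, *Ly6a* and *Ptprc*, which encode the antigens of the negative gate, summed to 26.5 to 42.3 and 26.4 to 49.5 TPM. Cells that could bring in *Pax3* of their own were little seen: of 6 melanocyte markers *Tyr*, *Tyrp1*, *Dct* and *Mlana* were at 0 TPM in all 6 libraries, and the sum was 1.95 to 3.44 TPM in *Pax7WT* and 1.86 to 3.50 TPM in *Pax7KR*. Schwann and glial markers summed to 63.6 to 93.0 TPM in *Pax7WT* and 50.2 to 91.2 TPM in *Pax7KR*, with *Sox10* at 0.836 to 2.17 TPM. Smooth muscle and pericyte markers summed to 168 to 218 and 176 to 206 TPM. Fibro-adipogenic markers summed to 625 to 699 and 659 to 752 TPM, most of it *Dpt*, while *Pdgfra* stayed at 0.356 to 0.978 TPM. The endothelial sums were 101 to 126 and 113 to 151 TPM, the immune 18.0 to 21.7 and 15.5 to 21.9 TPM, the tenocyte 30.5 to 61.8 and 41.3 to 44.7 TPM and the myofibre 49.0 to 63.9 and 45.8 to 65.3 TPM. The sums overlapped in all 10 lists. Of the 61 marker genes, 2 did not overlap in TPM, both lower in *Pax7KR*. In that unit the *Pax3* groups overlapped, whereas in CPM they did not. *Cd79a*, a B cell marker, stood at 8.50, 7.03 and 6.56 TPM in *Pax7WT* and at 5.30, 5.25 and 4.86 TPM in *Pax7KR*. *Scx*, a tenocyte marker, stood at 16.0, 13.4 and 14.4 TPM in *Pax7WT* and at 10.9, 8.75 and 12.7 TPM in *Pax7KR*. Such a separation in TPM was seen in 2.78% of all genes tested, and the part of other cells in the *Pax3* level was not tested.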

How the data were processed

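Per the labels, RNA of sorted satellite cells was made into directional libraries. The authors ran salmon (version 1.3.0) with the paired reads on GENCODE transcripts of GRCm38 with genomic decoys, and deposited estimated counts, not normalized, and TPM for each library. The authors' comparison table (log2 fold, p-value, mean), made with DESeq2 (version 1.28.1), was not used.

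Genes were assigned by transcript identifier from GENCODE release 21, on the same build, which covered 99.15% of 140992 transcripts. The 1201 others, 0.592% to 0.634% of reads, were left out. Sequences come from that release's transcripts. Estimated reads were summed per gene and rounded. Genes that reached 5 reads in at least 2 libraries entered edgeR (version 4.0.16; TMM, quasi-likelihood test, robust shrinkage) on genotype alone, with Benjamini-Hochberg adjustment over all genes tested and a threshold of 0.1, and transcripts likewise. DESeq2 (version 1.42.0) and limma (version 3.58.1) served as alternatives, in R (version 4.3.3), and scipy (version 1.17.1) gave exact permutation tests. The steps were tested on simulated counts, with large changes placed in features with many reads and the same spread for genes and transcripts. The common coefficient of variation between libraries in edgeR was 13.8% for genes and 75.3% for transcripts. The simulated spread was near that of the genes, so the simulation did not test the transcript fits or small changes. Poisson intervals cover counting error only. P-values set the difference between the groups against the spread between the samples of a group. No libraries were copies of each other: chi-square per gene was 10.3 to 23.2 over 15 pairs.

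The members, lists and tests were chosen with earlier results of these data known. Named from each list were the 2 tested members with the smallest unadjusted p, the 2 with the highest mean TPM and those called, the nearest tested neighbours, and the 5 genes most like each member. Single values of 2 genes of these lists are not reported here. Alternatives were another tool, normalization, filter, length offset, rounding or shrinkage, a replicate block and leaving out each library. DESeq2 with a length offset was added after seeing the data.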

Additional observations from a re-analysis of the deposited data

How the results depend on the processing

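For the genes, the 11 fits other than those that leave out a library gave *Pax7* -0.06 to -0.02 and *Pax3* -0.30 to -0.25 on the log2 scale, with the same direction and no adjusted p under 0.1. Unadjusted, *Pax3* had a p under 0.05 in 8 of these 11 fits, and in 3 of the 6 that leave out a library. Those 8 share the same reads and have no length offset, so they are not independent. The unadjusted p of *Pax3* was 0.0547 in DESeq2, 0.0929 in edgeR with a length offset and 0.124 in DESeq2 with a length offset. Leaving out each library in turn moved *Pax7* from -0.11 to 0.0087, *Pax7-201* from -0.10 to 0.015, *Pax7-202* from -0.15 to 0.018, *Pax3-201* from -0.35 to 0.79 and *Pax3-203* from -0.45 to 0.24. The shares moved from -1.29 to 0.044 percentage points for *Pax7-202*, from -0.73 to 17.3 for *Pax3-201*, from -17.3 to 0.23 for *Pax3-202* and from -0.64 to 1.70 for *Pax3-203*, so the direction of these was set by single libraries. *Pax3* stayed at -0.35 to -0.20. The genes called over all genes tested were 0 in edgeR, 30 in DESeq2, 45 in DESeq2 with a length offset, 157 without a filter, 13 with the replicate block and 1 to 32 without 1 library, and the cause was not tested. Among the lists, 1 upstream gene was called in DESeq2 with a length offset, 1 target without a filter, 0 to 1 target without 1 library, and 0 to 1 neighbour of *Pax3* without 1 library. Correlations of same-numbered deviations were 0.001, 0.057 and -0.061. With 3 libraries per group they cannot decide whether the replicate numbers pair the samples. The replicate block gave *Pax7* -0.05 and *Pax3* -0.28 with an unadjusted edgeR p of 0.0492. At 256 to 483 reads per library, the counting error of *Pax3* limits what can be seen.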
